A study of Mus musculus with 8 samples.

Results

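The small heat shock protein genes of muscle and their co-chaperone gene Bag3 were followed in C2C12 myotubes under control or Baf60c knockdown at a low and a higher glucose concentration. The set was named gene by gene: Hspb1, Hspb2, Hspb3, Hspb6, Hspb7, Hspb8, Cryab and Bag3, with each gene read from the probe set annotated to it alone, or from the one with the highest mean over the 8 arrays where several existed. Where a gene had several probe sets, its probe set was thus chosen by this mean, which weighs all groups alike and is the only measured value in the rule. The genes themselves were named with earlier results of these data known. Of the 8 genes, 7 had such a probe set, among 22180 genes with a probe set annotated to them alone. All 7 were among the 13308 genes tested. Hspb2 was read only by a probe set annotated to both Hspb2 and Cryab, which is reported as the shared probe set and was fitted beside the tested genes.

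C2C12 is a mouse myoblast line that fuses into multinucleated myotubes in culture. The 8 arrays measured total RNA from 4 groups of 2 samples, which the series design calls independent biological replicates. The groups named Scrb_LG and Scrb_HG carried a retrovirus with a scrambled control shRNA and were kept for 12 h at 1 mM or 10 mM glucose. The groups named SiBc_LG and SiBc_HG carried a retrovirus whose shRNA targets Baf60c, which belongs to a chromatin remodelling complex and is encoded by Smarcd3, at the same 2 concentrations. All groups therefore shared retroviral transduction with an shRNA and differentiation into myotubes, and an shRNA lowers a transcript without removing the gene. Below they are called control and knockdown cells.

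Small heat shock proteins are chaperones that share an alpha-crystallin domain, assemble into oligomers and bind partly unfolded proteins without using ATP, keeping them in a state that other chaperones can refold or degrade. Striated muscle expresses an unusually large set of them, and they associate with the Z-disc, actin filaments and the desmin network under mechanical or heat stress. Bag3 links HSPB8 to the HSP70 system and to the autophagic removal of damaged filamin, a route called chaperone-assisted selective autophagy. Cryab, Hspb1 and Bag3 are also known as targets of the heat shock factor Hsf1.

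Arrays of 1 group correlated across genes at 0.987 to 0.990, and each correlated with its own replicate more closely than with any other array (genes are not independent replicates). The probe set shared by Chpf2 and Smarcd3, which checks the labels, was 6.15-fold lower in knockdown than in control cells at 1 mM glucose and 3.95-fold lower at 10 mM. It was 2.48-fold higher at 10 mM than at 1 mM glucose in knockdown cells and 1.59-fold higher in control cells (limma adjusted p 0.00442 and 0.06). Markers of myotubes were present in all groups. The level summed over 22 myotube markers, of which 21 were tested, was on the log2 scale 13.51 on both arrays of control cells at 1 mM, 13.94 to 14.17 in control cells at 10 mM, 12.31 to 12.48 in knockdown cells at 1 mM and 13.25 to 13.34 in knockdown cells at 10 mM. Of 6 macrophage markers, Adgre1, Csf1r and Itgam lay below the filter on low signal (a log2 value of 2.30, the 40th percentile of gene means) and Cd14, Cd68 and Ptprc above it. Of 6 adipocyte markers, Fabp4, Lep and Cidec lay below it and Pparg, Adipoq and Plin1 above it. The summed macrophage level ran from 5.85 to 6.42 over the 8 arrays and the adipocyte level from 6.44 to 6.76. Fibroblast and smooth muscle markers were abundant, with a summed level of 12.68 to 12.87 on the arrays at 1 mM glucose and 13.59 to 13.74 on those at 10 mM, and that of undifferentiated myoblast markers was 9.98 to 10.07 and 10.12 to 10.50. Values below are log2 RMA expression values, changes are log2 changes ± SE from limma, and a change is called at an adjusted p under 0.05 (Benjamini-Hochberg over all rows fitted). With 2 arrays a group the 95% confidence interval of a change reached 0.41 to either side for a gene of median spread.

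Changes passed the test in at least 1 comparison for 2 of the 7 genes and for the shared probe set. Over all rows fitted, limma called 25.3% with glucose in control cells and 25.1% in knockdown cells. With knockdown it called 1.50% at 1 mM and 1.13% at 10 mM. Hspb7 fell with knockdown at both glucose concentrations and rose with glucose in knockdown cells. Hspb3 rose with glucose in control cells and fell with knockdown at 10 mM glucose. The shared probe set of Hspb2 and Cryab rose with glucose in both kinds of cells. The group means of Hspb7 spanned 3.29 on the log2 scale and those of Hspb3 2.59, against a median span of 0.54 over all tested genes. Those of Hspb1, Hspb8, Cryab, Bag3 and Hspb6 spanned 0.45, 0.43, 0.42, 0.25 and 0.08.

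**Figure D1:**
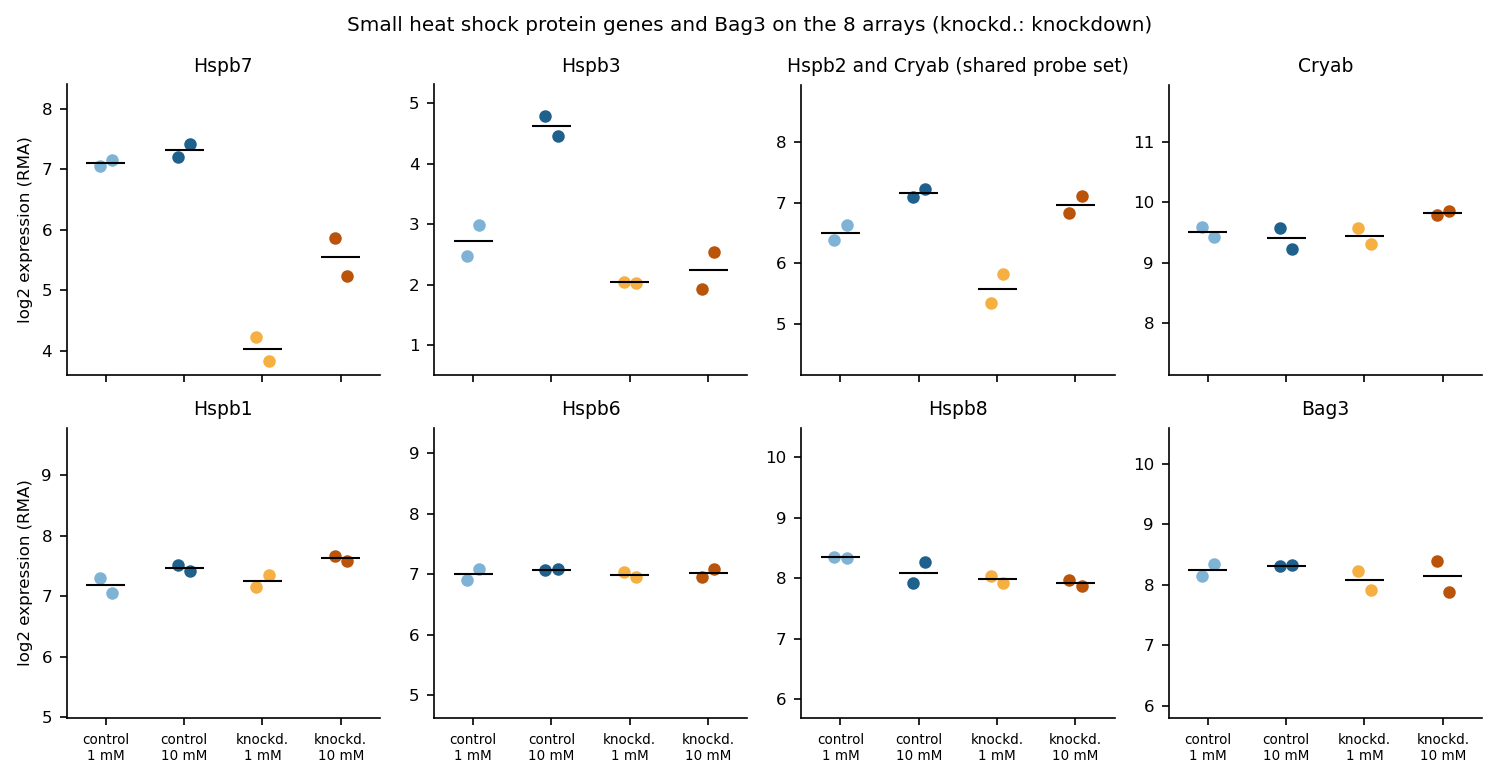
Log2 RMA expression of each gene on the 8 arrays (points) with the mean of each group of 2 (line), in panels that span the same log2 range but start at different levels. Hspb7 sits between 3.82 and 5.85 in knockdown cells and between 7.05 and 7.42 in control cells, and Hspb3 is above 4 only in control cells at 10 mM glucose.

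Hspb7, also called cvHSP, is a small heat shock protein of heart and skeletal muscle that binds the actin cross-linker filamin C. It read 7.05 and 7.16 in control cells at 1 mM glucose and 7.21 and 7.42 in control cells at 10 mM. In knockdown cells it read 4.23 and 3.82 at 1 mM and 5.85 and 5.24 at 10 mM. All 4 knockdown arrays thus lay below all 4 control arrays, and within knockdown cells both arrays at 10 mM lay above both at 1 mM.

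At 1 mM glucose Hspb7 was 8.43-fold lower in knockdown cells (-3.07 ± 0.23, 95% confidence interval -3.62 to -2.53, adjusted p = 0.00313, n = 2 per group, limma). At 10 mM it was 3.40-fold lower (-1.77 ± 0.23, interval -2.31 to -1.22, limma adjusted p = 0.0278). With glucose it rose 2.87-fold in knockdown cells (1.52 ± 0.23, limma adjusted p = 0.00323). In control cells the glucose difference was 0.21 ± 0.23 and did not pass the test (limma adjusted p = 0.552). The probe set shared by Chpf2 and Smarcd3 also rose with glucose in knockdown cells (1.31 ± 0.22, limma adjusted p = 0.00442). Its part in the glucose rise of Hspb7 was not tested. In arrays of whole cultures, fewer myotubes and less RNA per myotube cannot be told apart.

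The larger glucose difference of Hspb7 in knockdown cells was tested as such. The responses differed by 1.31 ± 0.33 (interval 0.54 to 2.08), with an unadjusted p of 0.0048 and an adjusted p of 0.445 by limma, so the difference did not pass. None of the 13310 rows fitted passed that test (0.00% called), while 1050 had an unadjusted p under 0.05. With trend and robust options limma called 1 gene. The fall of Hspb7 at 1 mM was called under every alternative run, between -3.28 and -2.87. The fall at 10 mM kept its size (-2.07 to -1.46) but lost its call without any of the 4 arrays of that comparison. Its adjusted p was 0.107 and 0.162 without control replicate 1 or 2, and 0.0526 and 0.131 without knockdown replicate 1 or 2.

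Hspb3 encodes a small heat shock protein that is made in muscle cells as they differentiate and that forms a complex with HSPB2. It read 2.48 and 2.99 in control cells at 1 mM glucose and 4.80 and 4.46 at 10 mM. In knockdown cells it read 2.06 and 2.03 at 1 mM and 1.93 and 2.55 at 10 mM. Only the 2 control arrays at 10 mM stood clear of the low end of the scale. On average 59.1% of the genes on an array read lower than Hspb3 in control cells at 10 mM, against 45.5% in control cells at 1 mM, and 33.3% (1 mM) and 37.8% (10 mM) in knockdown cells. Signal above background was not shown in those 3 groups, so the differences from them may be understated. Its mean over all arrays was 2.91, and the gene left the tested set under a filter at the 60th percentile.

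With glucose Hspb3 rose 3.72-fold in control cells (1.90 ± 0.25, interval 1.30 to 2.49, limma adjusted p = 0.0022, n = 2 per group). In knockdown cells the glucose difference was 0.20 ± 0.25 and the replicates overlapped (limma adjusted p = 0.624). It was 5.23-fold lower in knockdown than in control cells at 10 mM glucose (-2.39 ± 0.25, limma adjusted p = 0.0171). At 1 mM the knockdown difference was -0.69 ± 0.25, which did not pass (limma adjusted p = 0.249). The glucose responses differed by -1.70 ± 0.36 (interval -2.54 to -0.86), with an unadjusted p of 0.00188 and an adjusted p of 0.417 by limma. The rise in control cells was called in all 10 alternatives that kept the gene. The call of the fall at 10 mM was lost without any of the 4 arrays concerned, with adjusted p of 0.0992 and 0.11 without control replicate 1 or 2 and 0.0765 and 0.0519 without knockdown replicate 1 or 2. The 2 glucose comparisons share no arrays, but each knockdown comparison shares its arrays with them, so the rises and falls of a gene are not separate evidence.

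The sequences before the starts of these 2 genes are shown because both changed with knockdown, and that of Hspb1, which was not called in any comparison, stands beside them. RefSeq promoters of build GRCm38.p6 were matched for 6 of the 8 genes (not Hspb2 and Cryab), in 7 windows because Hspb6 has 2 starts. Each run holds the 250 bases before the start, at chr4:141420529-141420778 on the + strand for Hspb7, chr13:113663677-113663926 on the - strand for Hspb3 and chr5:135887669-135887918 on the + strand for Hspb1. Capitals mark matches on either strand to the E-box CANNTG bound by myogenic factors, the heat shock element GAANNTTC or TTCNNGAA, the MCAT motif CATTCC, the TATA box TATAAA, the CCAAT box, the MEF2 site and the CArG box.
Hspb7: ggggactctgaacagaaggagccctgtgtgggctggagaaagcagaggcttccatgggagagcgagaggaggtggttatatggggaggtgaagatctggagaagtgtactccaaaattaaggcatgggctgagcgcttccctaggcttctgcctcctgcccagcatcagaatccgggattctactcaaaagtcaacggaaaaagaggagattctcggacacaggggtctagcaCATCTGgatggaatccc
Hspb3: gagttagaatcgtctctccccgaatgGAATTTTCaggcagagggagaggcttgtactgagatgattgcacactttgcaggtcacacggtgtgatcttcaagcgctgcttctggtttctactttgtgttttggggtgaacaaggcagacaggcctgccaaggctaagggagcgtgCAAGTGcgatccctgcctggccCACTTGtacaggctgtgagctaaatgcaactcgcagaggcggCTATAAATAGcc
Hspb1: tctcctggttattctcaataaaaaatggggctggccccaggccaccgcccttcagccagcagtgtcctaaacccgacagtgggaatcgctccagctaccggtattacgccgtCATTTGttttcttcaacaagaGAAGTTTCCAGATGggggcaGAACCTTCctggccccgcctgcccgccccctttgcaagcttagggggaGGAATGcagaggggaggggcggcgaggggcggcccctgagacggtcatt

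The Hspb7 window held a single match, an E-box that begins 17 bases before the start, and E-boxes occurred in 66.2% of the 32851 promoter windows of the table. The Hspb3 window held 2 E-boxes, 1 heat shock element and, ending 3 bases before the start, a MEF2 site whose letters contain the TATA box. MEF2 sites occurred in 2.92% of all windows and TATA boxes in 12.4%. The Hspb1 window held 2 heat shock elements, which occurred in 12.8% of windows, with 2 E-boxes and 1 MCAT motif, and an E-box there directly follows a heat shock element. Among the 7 windows, 3 held a heat shock element (Hspb1, Hspb3 and 1 of the 2 of Hspb6), 4 an E-box and 0 a CArG box, which occurred in 1.47% of all windows. The Bag3 window held none of these motifs. A match describes letters in the window and does not show that a factor binds there.

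Hspb2, first described as a binding partner of the kinase DMPK, and Cryab (alpha-B-crystallin), which stabilizes desmin and titin, are neighbouring genes. The probe set annotated to both read 6.38 and 6.63 in control cells at 1 mM glucose, 7.10 and 7.23 in control cells at 10 mM, 5.35 and 5.82 in knockdown cells at 1 mM and 6.83 and 7.11 in knockdown cells at 10 mM. Knockdown cells at 1 mM were the lowest group, and at 10 mM the knockdown and control arrays overlapped. It rose 2.62-fold with glucose in knockdown cells (1.39 ± 0.20, limma adjusted p = 0.00235) and 1.58-fold in control cells (0.66 ± 0.20, limma adjusted p = 0.046). The rise in control cells lost its call without any of its 4 arrays (limma adjusted p 0.0819 to 0.19), after median centring of the arrays (0.0549) and with no filter on low values (0.0727). The knockdown difference was -0.92 ± 0.20 at 1 mM, which did not pass (limma adjusted p = 0.0807) but passed with a replicate block (adjusted p = 0.0481), a stricter filter (0.0216) and trend and robust options (0.00889). At 10 mM it was -0.20 ± 0.20 (adjusted p = 0.742).

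The probe set annotated to Cryab alone followed another course. It read 9.60 and 9.42 in control cells at 1 mM, 9.57 and 9.23 in control cells at 10 mM, 9.57 and 9.32 in knockdown cells at 1 mM and 9.79 and 9.85 in knockdown cells at 10 mM. The last group was the highest and did not overlap the others, but no change passed in the main fit. With trend and robust options the glucose difference in knockdown cells passed (limma adjusted p = 0.029). With glucose the difference was 0.38 ± 0.17 in knockdown cells (interval -0.01 to 0.77, limma adjusted p = 0.139) and -0.11 ± 0.17 in control cells (adjusted p = 0.681). Knockdown at 10 mM gave 0.42 ± 0.17 (adjusted p = 0.332). A dimmer second probe set of Cryab, with group means between 4.31 and 5.21, gave glucose differences of 0.59 ± 0.27 in control cells and 0.60 ± 0.27 in knockdown cells, neither called (adjusted p 0.153 and 0.151). The direction for control cells thus differed between the 2 probe sets, and the share of Cryab and of Hspb2 in the shared signal was not resolved.

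Hspb1 (HSP27, HSP25 in mouse), which caps and protects actin filaments, read 7.30 and 7.06 in control cells at 1 mM glucose, 7.52 and 7.42 in control cells at 10 mM, 7.16 and 7.34 in knockdown cells at 1 mM and 7.67 and 7.59 in knockdown cells at 10 mM. All 4 arrays at 10 mM lay above all 4 at 1 mM. The differences with glucose were 0.29 ± 0.14 in control cells and 0.38 ± 0.14 in knockdown cells, and neither passed (limma adjusted p 0.19 and 0.0974). With trend and robust options the second of these passed (adjusted p = 0.0465). Knockdown differences were 0.07 ± 0.14 at 1 mM and 0.16 ± 0.14 at 10 mM, so a fall of more than 0.27 at 1 mM lay outside the 95% interval. A second probe set of Hspb1 read between 2.17 and 2.99 and gave no call.

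Hspb6 (HSP20), a small heat shock protein that is phosphorylated in response to cyclic nucleotide signals in muscle, was the steadiest of the set. Its 8 arrays read from 6.91 to 7.09, and the range of its group means was lower than that of all but 0.80% of tested genes. Its 4 changes lay between -0.05 and 0.07 with an SE of 0.13, so that in none of the 4 did the 95% interval reach beyond 0.38 in size.

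Hspb8 (HSP22), the partner of Bag3, read 8.35 and 8.34 in control cells at 1 mM, 7.92 and 8.26 in control cells at 10 mM, 8.04 and 7.92 in knockdown cells at 1 mM and 7.97 and 7.86 in knockdown cells at 10 mM. Control cells at 1 mM were the highest group, above every other array. The differences were -0.36 ± 0.15 with knockdown at 1 mM (limma adjusted p = 0.298) and -0.25 ± 0.15 with glucose in control cells (limma adjusted p = 0.266). Knockdown at 10 mM gave -0.17 ± 0.15 and glucose in knockdown cells -0.06 ± 0.15, so no change of Hspb8 passed.

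Bag3 read from 8.15 to 8.35 in control cells and from 7.89 to 8.40 in knockdown cells, and the groups overlapped in all 4 comparisons. The replicates in knockdown cells at 10 mM read 8.40 and 7.89, the widest gap between replicates of Bag3. Glucose differences were 0.07 ± 0.20 in both kinds of cells, and knockdown differences -0.17 ± 0.20 at 1 mM and -0.18 ± 0.20 at 10 mM. The 95% intervals left room for changes of up to 0.65 in size, so a moderate change of Bag3 was not detectable here.

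**Figure D2:**
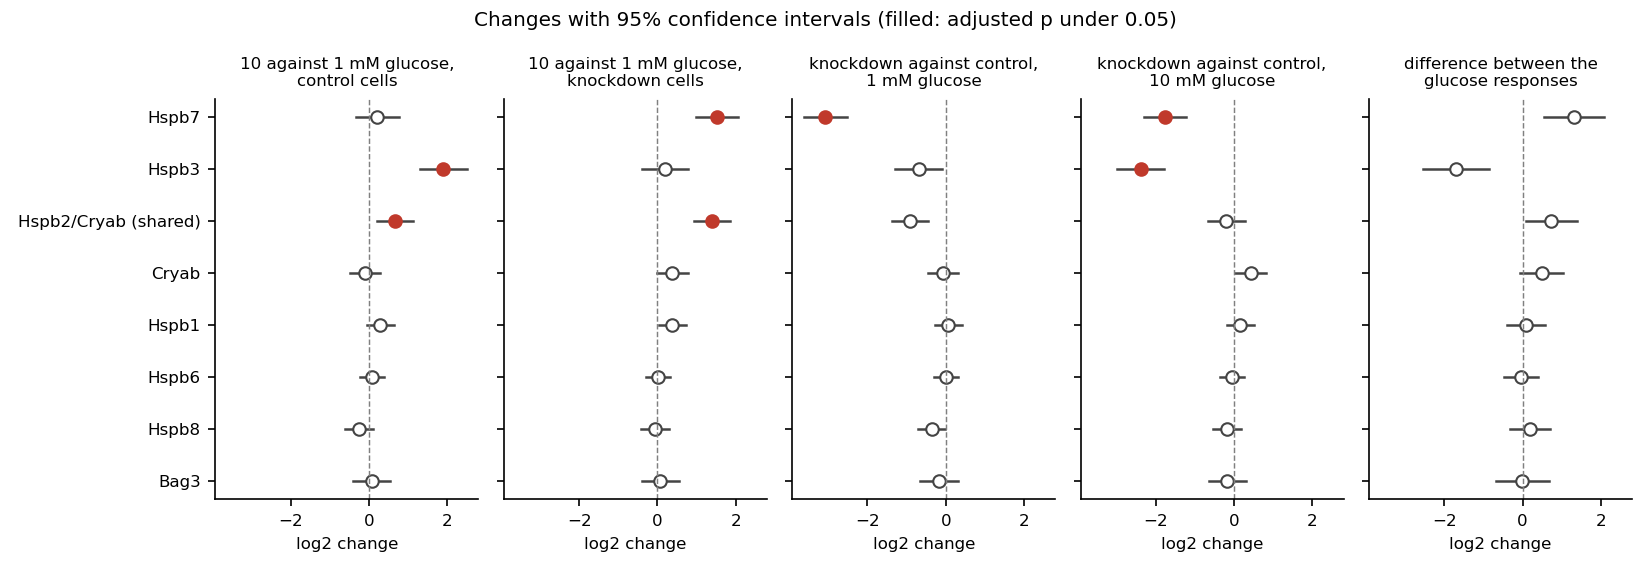
Log2 change of each gene (points) with its 95% confidence interval (lines) in the 5 comparisons, filled where the adjusted p was under 0.05. Hspb7 and Hspb3 carry the calls with knockdown, and in the difference between the glucose responses they lie on opposite sides of 0 (1.31 and -1.70) without passing the test.

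Counted over the 7 tested genes, glucose in control cells gave 1 rise and 0 falls, where limma called 25.3% of all rows fitted (13.2% higher, 12.1% lower). Glucose in knockdown cells gave 1 rise and 0 falls, beside 25.1% called over all rows (14.6% higher, 10.6% lower). Knockdown at 1 mM glucose gave 1 fall and 0 rises, beside 1.50% called (0.240% higher, 1.26% lower). Knockdown at 10 mM gave 2 falls and 0 rises, beside 1.13% called (0.428% higher, 0.706% lower). In the glucose comparisons the share of calls in the set was thus no higher than that over all rows fitted. The set was chosen with earlier results of these data known, so its knockdown calls were not tested as an enrichment. The medians of the 7 changes were 0.07, 0.20, -0.17 and -0.17 in that order, beside -0.01, 0.03, -0.03 and 0.01 over all tested genes. Replicates of the compared groups did not overlap for 4 of the 7 genes with glucose in control cells (64.4% of all rows) and 3 of 7 with glucose in knockdown cells (64.2%). With knockdown they did not overlap for 3 of 7 at 1 mM (47.1%) and 4 of 7 at 10 mM (45.6%).

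The other genes of protein folding and of the muscle structures that these chaperones serve were read from lists. Chaperones of the endoplasmic reticulum fell with glucose in 13 of 13 tested genes in both kinds of cells, at medians of -1.95 and -2.25, with Hspa5 (BiP) falling 6.85-fold in control and 7.43-fold in knockdown cells. Of 24 cytosolic and mitochondrial chaperones, 2 rose and 4 fell in control cells and 2 rose and 5 fell in knockdown cells, at medians of -0.23 and -0.20. The falls were led by the mitochondrial chaperones Hspa9 (-1.31 ± 0.12 in control cells, -1.23 ± 0.12 in knockdown cells) and Hspd1 (-1.41 ± 0.14 and -1.28 ± 0.14), and Dnajb5 rose (1.01 ± 0.17 and 0.79 ± 0.17). With knockdown limma called 0 of the 13 and 0 of the 24 at either concentration. At an unadjusted p under 0.05 there were 0 and 3 at 1 mM and 2 and 1 at 10 mM. Of the heat shock factor genes Hsf2 fell with glucose in knockdown cells (-0.70 ± 0.17) and gave -0.53 in control cells, which was not called. Hsf4 was not called, and Hsf1 had no probe set annotated to it alone and was not tested. Among the other 5 BAG family genes limma called 0 in each comparison, with at most 1 at an unadjusted p under 0.05.

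Partners of Bag3 in selective autophagy moved in both directions with glucose. Of 11 tested genes 2 rose and 5 fell in control cells, and 3 rose and 2 fell in knockdown cells. The autophagy receptor gene Sqstm1 (p62) fell 2.37-fold in control and 2.12-fold in knockdown cells, and Synpo2, the Z-disc adaptor that binds Bag3, rose 2.09-fold and 3.31-fold. Flnc, the filamin of muscle that is a client of the pathway, fell in control cells (-0.74 ± 0.13). Its group means at 1 mM and 10 mM were 9.91 and 9.17 in control cells and 9.21 and 8.80 in knockdown cells. The knockdown change of Flnc at 1 mM was -0.69 and was not called. With knockdown limma called 0 of the 11 at 1 mM (4 at an unadjusted p under 0.05) and 1 at 10 mM, where Flna rose (0.71 ± 0.12).

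Genes of the Z-disc and the intermediate filaments rose with glucose in 10 of 20 tested genes in both kinds of cells, with 1 fall in control and 0 in knockdown cells. The desmin gene Des, whose product Cryab protects, gave 0.65 ± 0.13 and 1.06 ± 0.13, both called. Dmpk rose by 1.37 ± 0.16 in control cells, and in knockdown cells its group mean was 7.34 at 1 mM and 8.69 at 10 mM. With knockdown 6 of the 20 fell at 1 mM and 3 at 10 mM, and 0 rose. The alpha-actinin gene Actn2 was 3.85-fold lower at 1 mM and 4.58-fold lower at 10 mM, and the nebulin gene Neb 3.67-fold and 2.01-fold lower.

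Knockdown lowered 17 of 21 tested markers at 1 mM and 10 of 21 at 10 mM and raised 0, at medians of -1.63 and -1.10. With glucose 11 of 21 rose in control cells and 21 of 21 in knockdown cells, and 0 fell. Their changes at 1 mM ran from -2.85 (Mb, myoglobin) to -0.60 (Mylpf), and the measured fall of 0 of 21 exceeded that of Hspb7. Myh4 and Myh8 read only 1.81 and 2.30 in knockdown cells at 1 mM, at or below the filter level, so their falls may be understated and this count is one of measured values only. At 10 mM they ran from -2.21 (Mb) to -0.34 (Mylpf), where the measured fall of 2 of 21 exceeded that of Hspb7 and of 0 that of Hspb3. Hspb7 gave 0.21 ± 0.23 (interval -0.33 to 0.76) with glucose in control cells, where the marker median was 0.68. Hspb3 gave 0.20 ± 0.25 with glucose in knockdown cells and -0.69 ± 0.25 with knockdown at 1 mM. The marker medians there were 1.22 and -1.63, and Hspb3 read near the low end of the scale in these groups. None of these changes of Hspb7 and Hspb3 was called, and their differences from the markers were not tested. Of 9 myogenic transcription factor genes, Mef2c and Myog fell with knockdown, Mef2c 4.49-fold at 1 mM and 2.54-fold at 10 mM. With glucose 3 of these 9 rose and 1 fell in control cells, and 5 rose and 1 fell in knockdown cells. Myod1 rose the most (2.19 and 2.51). The part of the myotube programme in the changes of Hspb7 and Hspb3 was not tested. Markers of other cell types changed with glucose too. Of 11 undifferentiated myoblast markers 5 rose and 1 fell in both kinds of cells. The proliferation genes Top2a and Mki67 rose by 3.25 ± 0.16 and 2.52 ± 0.29 in control cells and 2.53 ± 0.16 and 2.71 ± 0.29 in knockdown cells, and Hmga2 changed by -1.88 ± 0.14 and -2.12 ± 0.14. Of 11 fibroblast and smooth muscle markers 7 rose in control and 8 in knockdown cells, among them the matrix genes Dpt (2.32 ± 0.17 and 2.38 ± 0.17) and Col1a1 (1.10 ± 0.15 and 1.23 ± 0.15), and 0 fell. The part of these markers in the glucose changes of the set was not tested. With knockdown limma called 0 of 11 undifferentiated myoblast markers at either concentration, with 3 at an unadjusted p under 0.05 at each. Of 11 fibroblast and smooth muscle markers it called 0 at 1 mM (5 at an unadjusted p under 0.05) and 2 rises at 10 mM, Cnn1 (2.28 ± 0.27) and Tagln (1.12 ± 0.18).

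**Figure D3:**
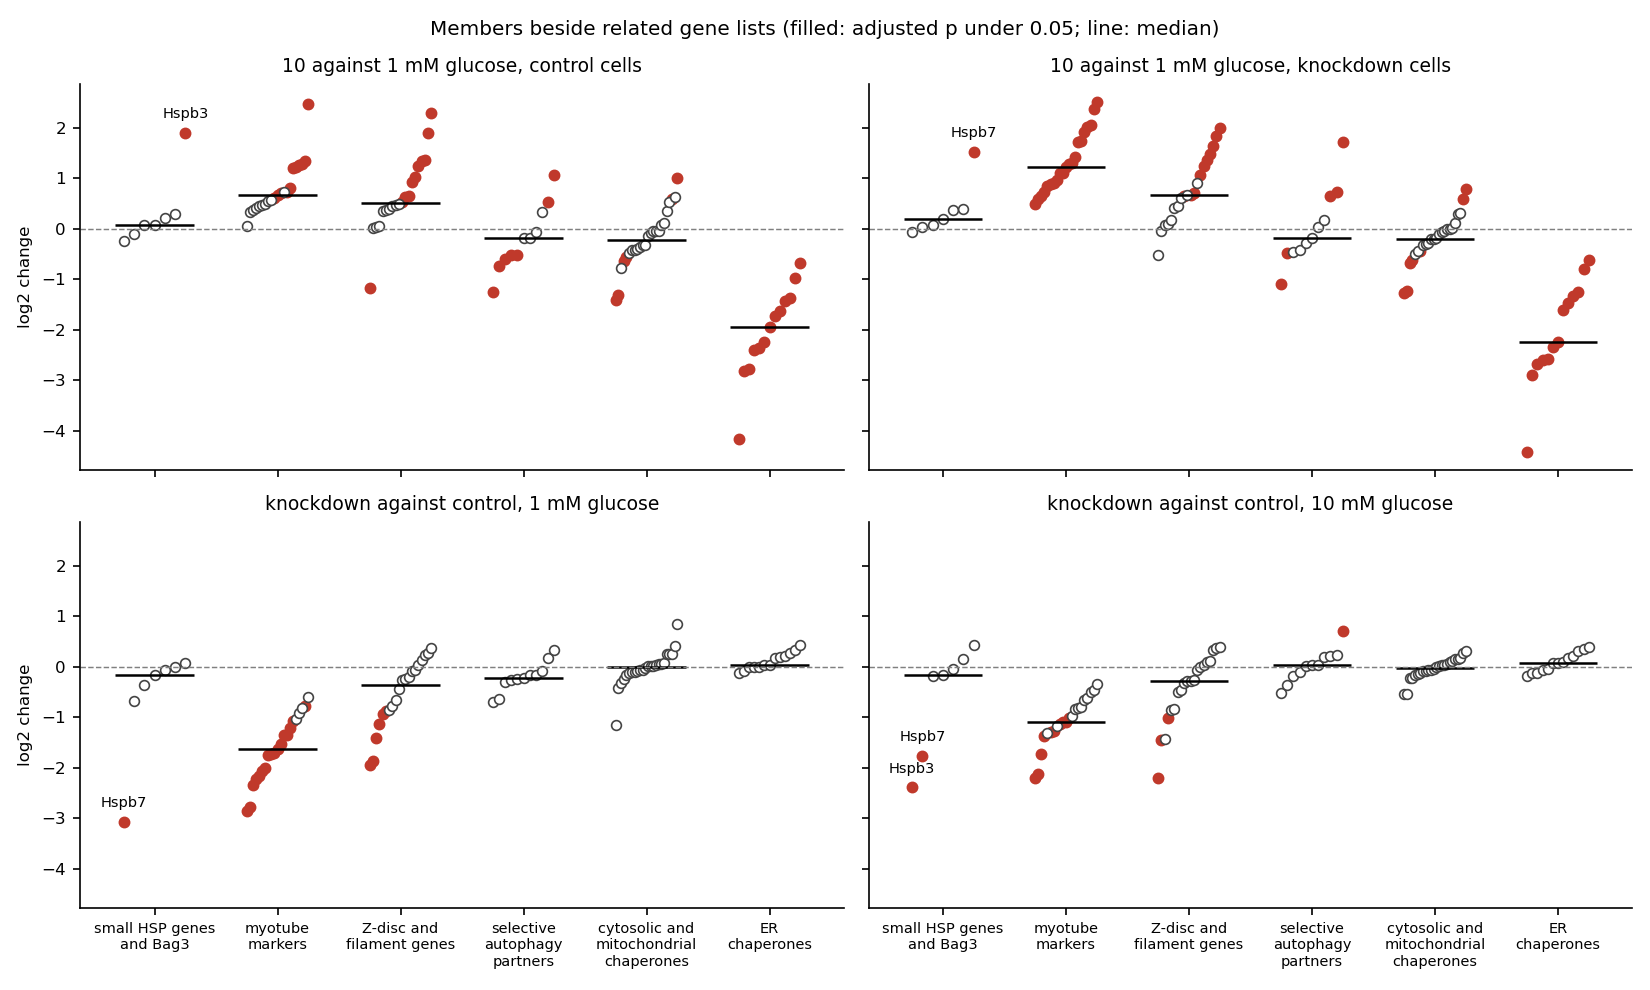
Log2 change of every tested gene (points, filled where the adjusted p was under 0.05, with the list median as a line) in the set and in 5 related lists, for the glucose comparisons (top) and the knockdown comparisons (bottom). Hspb7 with knockdown at 1 mM and Hspb3 with knockdown at 10 mM lie below the measured changes of all 21 myotube markers, of which Myh4 and Myh8 were at or below the filter level in knockdown cells at 1 mM, and with glucose the chaperones of the endoplasmic reticulum (ER) lie below the set.

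The genes with the profile most like each member were found by the root mean square difference over the 8 arrays after centring each gene on its mean. Changes that they share with the member on these arrays follow from this choice and are not separate evidence. For Hspb7 they were Pgm5, an actin-adhesion protein of muscle related to phosphoglucomutase (0.28), Atp2a1, the calcium pump of fast fibres (0.33), and Pygm, the muscle glycogen phosphorylase (0.40). All were lower in knockdown than in control cells at 1 mM, Pgm5 6.87-fold, Atp2a1 6.91-fold and Pygm 7.10-fold. In the same measure Hspb7 stood 0.38 from the probe set shared by Chpf2 and Smarcd3, the knockdown target. For Hspb3 they were the myosin light chain gene Myl6b (0.37), the myosin-binding protein gene Mybpc1 (0.37) and the transcription factor gene Trp63 (0.38). Mybpc1 and Trp63 were dim in knockdown cells at 1 mM, with means of 2.08 and 2.17. Hspb3 was not called with glucose in knockdown cells, whereas Myl6b and Trp63 rose there (0.81 ± 0.12 and 0.98 ± 0.21), a difference between genes that was not tested. Mybpc1 was not called in any comparison. For the other members the 3 nearest genes differed by 0.05 to 0.09. The SD over the 8 arrays was 0.07 for Hspb6, close to its distance from the nearest gene (0.05), and 0.20 to 0.22 for Hspb1, Hspb8, Cryab and Bag3. For Hspb1 the nearest was Zfp157 (0.05), whose group means also were higher at 10 mM than at 1 mM glucose in both kinds of cells, 7.63 against 7.30 in control and 7.75 against 7.37 in knockdown cells.

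**Figure D4:**
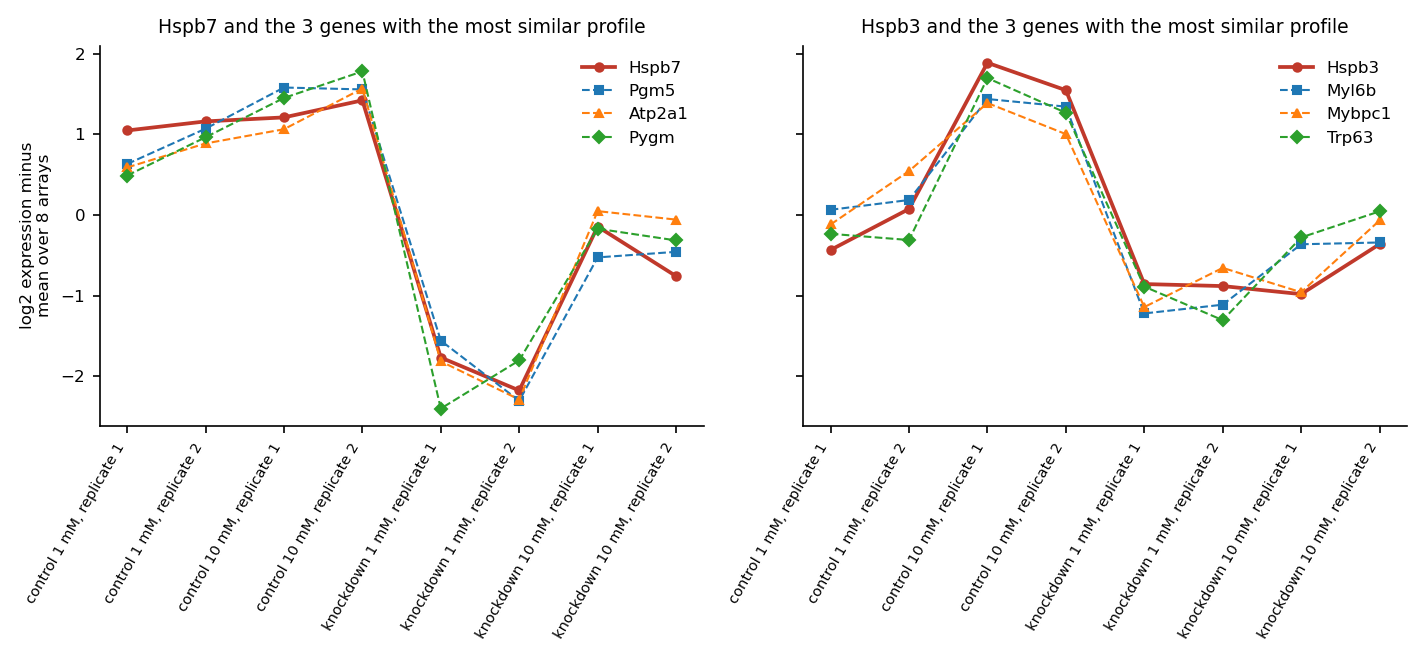
Log2 expression minus the gene's own mean over the 8 arrays, for Hspb7 and Hspb3 (solid red) and the 3 genes closest to each (dashed), with 1 point per array. Hspb7 and its 3 closest genes are high on all 4 control arrays and lowest in knockdown cells at 1 mM, while Hspb3 and its closest genes peak in control cells at 10 mM. The closest genes were chosen for this likeness on the same arrays.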

How the data were processed

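The table held the authors' deposited log2 expression values, which come from Affymetrix Mouse Gene ST arrays. The submitters' processing notes list RMA and affy. The affy version and the genome build of the probe design are not given in the sources used here. RMA equalizes distributions between arrays and shrinks differences at low intensity, so dim genes may be understated. Gene names of probe sets came from GEO's annotation of the platform. Of 41345 probe sets, 23521 had exactly 1 gene, 1814 several and 16010 none, and 23328 of the 23521 matched the gene table of GRCm38.p6 by gene ID. Genes with a mean below the 40th percentile were left out. limma 3.58.1 in R 4.3.3 (lmFit, eBayes, 1 mean per group, all 8 arrays, two-sided) was fitted to 13310 rows, 13308 genes and 2 shared probe sets, with 4 residual and 3.36 prior degrees of freedom. The fit was tested on simulated data. The members, the 13 gene lists and the comparisons were chosen with earlier results of these data known, so no adjustment over a list is given. Genes named are the 8 members, up to 3 called genes with the smallest p per list and comparison, and the 3 nearest profiles of each member. Des, Hsf4, Tcap, Hspa1a, Hspa1b, Hspb11, Mylpf, the other macrophage and adipocyte markers and the genes below the filter fall outside this rule and were named after their values were seen. Promoter windows came from RefSeq and were searched with a script in Python 3.11.15. The number of arrays limits the precision.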

Additional observations from a re-analysis of the deposited data

How the results depend on the processing

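The fall of Hspb7 at 1 mM, its rise with glucose in knockdown cells and the rise of Hspb3 in control cells were called in each alternative that kept the gene. With a filter at the 60th percentile, members called numbered 0 for glucose in control cells and 1 for knockdown at 10 mM (Hspb3 was not in the set), and genes called with knockdown numbered 439 at 1 mM and 292 at 10 mM. With trend and robust options those were 601 and 468. Members called for glucose in knockdown cells were then 3 (Hspb7, Hspb1 and Cryab), and 1 gene was called for the difference between glucose responses. With the compared groups alone 23 and 6 genes and, at 10 mM, 0 members were called. The fall of the probe set shared by Chpf2 and Smarcd3 at 10 mM then also lost its call (limma adjusted p = 0.0793). No filter left 70 genes at 10 mM. A replicate block left 74 genes at 10 mM. The sample titles number the replicates without stating a pairing. Deviations of same-numbered arrays correlated at -0.038 to 0.108 and only 1 of 6 group pairs exceeded 0.1, so no strong shared replicate effect was visible. These correlations cannot show how the cultures were set up. Leaving out 1 array gave 2044 to 2331 genes for glucose in control cells, 1905 to 2468 in knockdown cells, 31 to 112 for knockdown at 1 mM and 0 to 11 at 10 mM, where 0 members stayed called. Centring each array changed the share of rises among glucose calls in knockdown cells from 58% to 46.9%.

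Directions turned only for changes that were not called. The mean of all probe sets gave Cryab 0.242 (glucose, control) and 0.115 (knockdown, 1 mM) and Hspb1 -0.078 (difference of responses). The second probe set, an alternative chosen after seeing the data, gave Cryab 0.59 and 0.3 and, for Hspb1, -0.013 (glucose, knockdown) and -0.248 (difference of responses). Centring gave Bag3 -0.026 and Hspb6 -0.07 (glucose, knockdown) and Hspb6 0.049 (knockdown, 1 mM). Leaving out 1 array gave, for glucose in control cells, Bag3 -0.027 to 0.173, Cryab -0.277 to 0.062 and Hspb6 -0.014 to 0.163. For glucose in knockdown cells it gave Bag3 -0.186 to 0.324, Hspb3 -0.112 to 0.507 and Hspb6 -0.042 to 0.093. For knockdown at 1 mM it gave Cryab -0.195 to 0.056, Hspb1 -0.056 to 0.193 and Hspb6 -0.093 to 0.084, and at 10 mM Bag3 -0.432 to 0.078 and Hspb6 -0.12 to 0.014. For the difference of responses it gave Bag3 -0.259 to 0.251, Hspb1 -0.032 to 0.217 and Hspb6 -0.137 to 0.04. A lone array left in a group was assumed to vary like the others. Where a value changed, the cause was not tested.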

Other observations

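Of the 4 genes outside the set listed under small heat shock protein names, Cryaa and Hspb9 lay below the filter on low signal. Hspb11 was not called in any comparison, and whether its product has an alpha-crystallin domain was not examined. Odf1, also called HSPB10 and known as a protein of the sperm tail, read 10.46 and 10.64 in control cells at 1 mM glucose and 9.89 and 9.74 at 10 mM. It fell with glucose in control cells (-0.74 ± 0.18, limma adjusted p = 0.021) and gave -0.44 ± 0.18 in knockdown cells (adjusted p = 0.111). Whether the signal of this probe set came from Odf1 RNA was not tested. The near-identical heat-inducible genes Hspa1a and Hspa1b gave glucose differences of opposite sign in control cells, -0.79 ± 0.26 and 0.63 ± 0.24, and neither passed (limma adjusted p 0.0614 and 0.105).

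Tcap, which caps titin at the Z-disc, rose with glucose in control cells (2.29 ± 0.35, limma adjusted p = 0.00362) and gave 0.91 ± 0.35 in knockdown cells (adjusted p = 0.0998), without a called difference between the responses (adjusted p = 0.59). Among the tested macrophage markers, Ptprc and Cd68 fell with glucose in knockdown cells by limma, and limma called 0 of the 3 tested adipocyte markers in each comparison, with at most 1 at an unadjusted p under 0.05.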
